A study of Mus musculus with 2 samples.

Results

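Haptoglobin (Hp), leucine-rich alpha-2-glycoprotein (Lrg1), serum amyloid A3 (Saa3), lipocalin 2 (Lcn2), orosomucoid (Orm1), ceruloplasmin (Cp) and the long pentraxin Ptx3 are secreted proteins of the acute phase response, and their transcripts were examined here in sorted lung fibroblasts. The genes were chosen by name as acute phase secreted proteins, and were selected from results that included this same contrast of bleomycin with saline, so their own values are given as a description with no test. Of the 7 genes, 6 had a row in the count table among 16040 genes in all, and Orm1 was not analysed here. The cells came from Col1a2-EGFP mice, in which the fluorescent reporter is driven by a type I collagen gene, and were taken at day 14 after saline or bleomycin had been injected into the trachea. In both groups the lungs were digested with enzymes, lineage-negative and GFP-positive cells were sorted, and RNA of fibroblasts from 3 mice was counted by SOLiD SAGE, which reads 1 short tag near the 3′ end of each transcript. The labels do not say which lineage markers were used, whether the mice were pooled before or after sorting, or how old they were. There was 1 library a group, so no difference below has a replicate check, and the intervals cover only the error of counting. The saline library held 1080798 counts and the bleomycin library 1099840.

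The acute phase response is the change in secreted proteins that follows injury or infection. It is best known from the liver, where interleukin-6 acts through STAT3, and interleukin-1 and tumour necrosis factor through NF-kappaB and C/EBP factors, to raise transcription of these genes. Many of them are also made outside the liver, Saa3 and Ptx3 largely so, in cells that include fibroblasts, macrophages, endothelium and epithelium.

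A SAGE count is a count of tags, so it does not grow with transcript length, but it depends on which tag a transcript yields. The kit is known to anchor tags at CATG sites. To see which genes of the set have a tag of their own, the 27 bases that begin at the last CATG of a GENCODE M21 transcript were read out; they are shown for Hp, Lrg1 and Saa3, the genes with the largest ratios, and for genes whose tags limit the reading, with the anchoring site in capitals.
Hp: CATGgaagagggggaagtggaagggtt
Lrg1: CATGtcagtgtgcagattcctcattcc
Saa3: CATGctgccccccgagaagaggagcaa
Saa1: CATGtgtgtatcccacaagggtttcag
Saa2: CATGtgtgtatcccacaagggtttcag
Orm1: CATGaactcagctctctgaactccgag
Orm2: CATGaactcagctctctgaactccgag
Lcn2: CATGcccccactt
The tags of Hp, Lrg1 and Saa3 each occurred in the transcripts of 1 gene, as did those of Cp and Ptx3. The transcript read for Cp was not linked to the transcript record given with its counts, so the tag counted for Cp may be another. The Saa3 tag differed from that of Saa1 and Saa2 at 14 of 27 positions. Saa1 and Saa2 had the same tag, and Orm1 had the same tag as Orm2, which was listed at 0 counts in both libraries. The last CATG of the Lcn2 transcript lay 13 bases from its annotated end, so only 13 bases of a tag could be read from it. The labels do not say which tags were counted for each gene, and the part of these sites in the counts was not tested.

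The 6 measured genes divided into 3 with far higher counts after bleomycin and 3 whose counts were similar in both libraries. Hp, Lrg1 and Saa3 had ratios of bleomycin to saline, in counts scaled to library size (CPM), of 38.9, 52.6 and 6.81. Ptx3, Lcn2 and Cp had ratios of 1.49, 1.24 and 1.17, and the exact 95% intervals of all 3 included 1. A gene was called when an exact binomial test of its 2 counts, adjusted by the Benjamini-Hochberg method over all genes with at least 10 counts, gave an adjusted p under 0.05 and its ratio was at least 2 in either direction. By that rule, which compares the libraries and not the conditions, 3 of the 6 genes were called higher and 0 lower. Over all 9369 genes tested, 8.11% were called higher and 8.59% lower; because the genes were picked with this contrast known, nothing is read from the difference between these shares. With edgeR and an assumed coefficient of variation of 0.4 between libraries, 29 genes were called in all, among them Hp and Lrg1 but not Saa3, and 0 genes of the acute phase, inducer, partner, metal and liver lists described below were called.

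**Figure D1:**
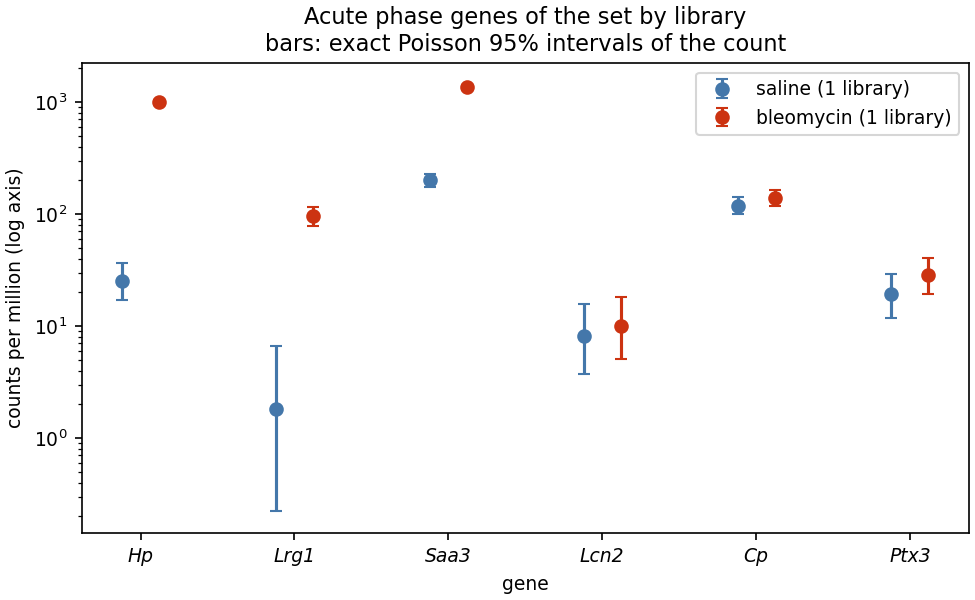
Level of each measured gene in CPM (log axis) in the saline and the bleomycin library, with exact Poisson 95% intervals of the count. Hp, Lrg1 and Saa3 are separated between libraries, whereas the intervals of Lcn2, Cp and Ptx3 overlap.

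Haptoglobin binds free haemoglobin and carries it to the scavenger receptor CD163. Hp stood at 28 counts in the saline library (exact Poisson interval 18.6 to 40.5) and at 1077 in the bleomycin library (1014 to 1143). In CPM that was 25.5 (17 to 36.9) against 993 (935 to 1055), a ratio of 38.9 with an exact interval of 26.8 to 58.8. Hp thus went from a minor to a major transcript of the set, from 6.83% (exact binomial interval 4.59 to 9.72) of the counts of the 6 genes to 37.8% (36 to 39.6). Among the 9369 genes tested, its log2 ratio of 5.26 ranked 29.

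LRG1 is a secreted glycoprotein that modulates TGF-beta signalling in endothelium through the accessory receptor endoglin. Lrg1 was nearly undetected in the saline library, with 2 counts (0.242 to 7.22), and had 104 counts (85 to 126) in the bleomycin library. The ratio of 52.6 had an interval of 14.2 to 440, because it rests on 2 saline counts. Its log2 ratio was 5.40 with 0.5 added to each count and 3.98 with 5 added, so the position of Lrg1 above Hp is uncertain, and their intervals overlapped.

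SAA3 is the serum amyloid A that mice make in inflamed tissues, where it acts on innate immune receptors and chemotaxis. Saa3 was already the most counted gene of the set in saline-treated mice, at 219 counts (191 to 250), and reached 1474 (1400 to 1551) after bleomycin. This was 200 CPM (174 to 228) against 1360 CPM (1291 to 1431), a ratio of 6.81 (5.9 to 7.88) that lay below the interval of Hp. Saa3 made up 53.4% (48.5 to 58.3) of the counts of the 6 genes in the saline library and 51.8% (49.9 to 53.6) in the bleomycin library. Its share of the set was therefore similar in both libraries while that of Hp grew.

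Ceruloplasmin is a copper-carrying ferroxidase that helps load iron onto transferrin. Cp had 131 counts (110 to 155) in the saline and 151 (128 to 177) in the bleomycin library, a ratio of 1.17 (0.916 to 1.48). With this depth a ratio of 2 lay outside the interval. As the sum of the set grew, Cp went from 32% (27.5 to 36.7) of the counts of the 6 genes to 5.3% (4.51 to 6.19).

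PTX3 is a pattern recognition protein that binds complement components and, with the protein encoded by Tnfaip6, stabilises hyaluronan matrix. Ptx3 had 21 counts (13 to 32.1) in the saline and 31 (21.1 to 44) in the bleomycin library, a ratio of 1.49 (0.831 to 2.73). Lipocalin 2 withholds iron from bacteria by binding their siderophores, and Lcn2 had 9 counts (4.12 to 17.1) and 11 counts (5.49 to 19.7), a ratio of 1.24 (0.466 to 3.37). Both intervals included a ratio of 1 and a ratio of 2.

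Summed over the 6 genes, the set went from 410 to 2848 counts, or from 0.0379% to 0.259% of all counts, a ratio of 7.02 (6.33 to 7.81). The sum was carried by Hp and Saa3, which held 247 of the saline and 2551 of the bleomycin counts. Without Hp the ratio of the sum was 4.69 (4.2 to 5.25), and without Saa3 it was 7.28 (6.25 to 8.51).

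**Figure D2:**
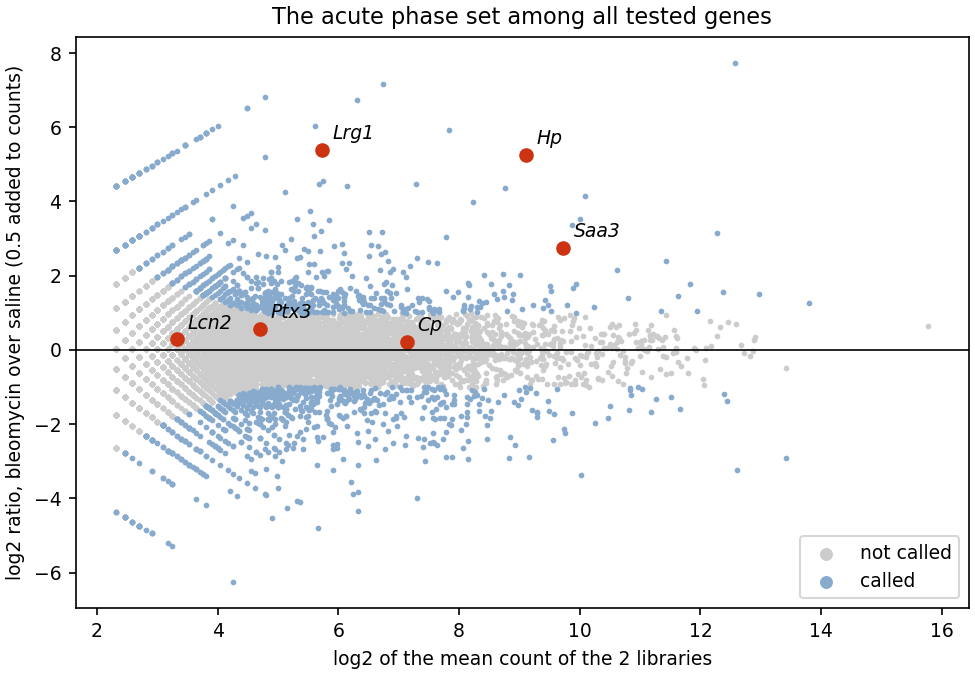
Log2 ratio of bleomycin to saline against the log2 of the mean count for the 9369 genes tested, with called genes in blue and the acute phase set in red. Hp and Lrg1 lie near the upper edge of the cloud, Saa3 lower, and Lcn2, Ptx3 and Cp within the grey band of genes that were not called.

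Genes with the most similar levels were found by Euclidean distance over log2(CPM + 1) in the 2 libraries, which is a likeness of 2 values only. Nearest to Hp were Tnc, the matrix glycoprotein tenascin C, at a distance of 0.63 and levels of 36.5 and 760 CPM, and Fst, the activin-binding protein follistatin, at 0.99 and 32.8 and 524 CPM. Nearest to Lrg1 was Anxa8, an annexin, at 0.054 with 1.82 and 99.6 CPM, followed by Cthrc1, a secreted protein of injured tissue, at 0.57. Nearest to Saa3 were Sfrp1, a secreted Wnt inhibitor, at 0.46 with 150 and 1570 CPM, and Timp1, an inhibitor of metalloproteinases, at 0.55 with 149 and 1737 CPM. For Cp the nearest genes were Taldo1, Hmcn1 and Ndufb8, none of them called, and for Ptx3 they were Arhgef5, Samd14 and Aarsd1, also not called. The third neighbour of Hp was D0H4S114 at 1.6, that of Lrg1 9930013L23Rik at 0.72 and that of Saa3 the collagen gene Col5a2 at 0.76.

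Other acute phase genes were called in 1 direction only under the 2-fold limit. Of 36 further genes listed as acute phase proteins, 22 had a row and 17 were tested, of which 8 were called higher and 0 lower against backgrounds of 8.11% and 8.59%. Their median log2 ratio was 0.37, beside 0.02 over all genes tested. It was 1.20 when all detected genes of the list were taken, and 0.54 when only those with at least 50 counts were. The 9 tested genes that were not called included abundant ones, and 5 of them had intervals wholly below 1. This list and those below were chosen with earlier results of these data known, so nothing is read from their shares beside those of all genes.

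The genes of this list that were called higher included protease inhibitors and lipid or metal binders, but its protease inhibitors did not all go this way. Serpina3c had 14 and 18 counts, a ratio of 1.3 (0.611 to 2.82), and was not called. Serping1, a more abundant inhibitor given below, had a ratio below 1. Serpina3m, a serine protease inhibitor related to antichymotrypsin, went from 18 to 164 counts, with a ratio of 9.21 (5.65 to 15.9), and its relative Serpina3n at 46 and 124 counts, a ratio of 2.73 (1.93 to 3.91). The Serpina3 genes are close copies, so tags may be shared among them. Slpi, the secretory leukocyte protease inhibitor, had 23 and 164 counts, a ratio of 7.21 (4.64 to 11.7). Saa1, a liver-type serum amyloid A, had 2 and 16 counts, a ratio of 8.09 (1.9 to 72.5), whereas Saa2, with the same predicted tag, had 6 and 4. Mt2, a metal-binding metallothionein and the most abundant gene on the list, had 4165 and 11843 counts, a ratio of 2.88 (2.78 to 2.98). Lbp, which encodes a protein that binds bacterial lipopolysaccharide, and A2m, a broad protease inhibitor, had ratios of 2.94 (2.4 to 3.62) and 3.68 (1.85 to 7.95).

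Several complement, coagulation and inhibitor genes of the list had ratios below 1. C3, the central complement component, had 2068 and 1605 counts, a ratio of 0.785 (0.735 to 0.838), and Serping1, the C1 inhibitor, had 3378 and 2149, a ratio of 0.643 (0.609 to 0.679). C4b, Itih4 and F3, the tissue factor gene, had ratios of 0.64, 0.57 and 0.598. None of these 5 passed the 2-fold limit. Outside the partners list, the identity genes and the most abundant gene of each list, genes named from the lists that were not called, and Lbp, A2m, Serpina3n and Slc31a1, were picked after their values were seen.

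A further list held plasma proteins known as negative acute phase proteins, not all of which fall in mice. Of 9 listed, 6 had a row and 4 were tested, of which 3 were called lower and 0 higher (8.59% and 8.11% over all genes tested), with a median log2 ratio of -1.15. Rbp4, the retinol carrier, was 8.04-fold lower (5.73 to 11.6), from 309 to 38 counts. Trf, the iron carrier transferrin, was 2.14-fold lower (1.87 to 2.45), from 694 to 321 counts, and Fetub, a fetuin, was 2.32-fold lower (1.35 to 4.14). Igf1 was not called, with 93 and 176 counts. Alb, serum albumin, was listed at 0 in both libraries, as were the liver regulators Foxa1, Foxa2 and Foxa3. Of 10 listed liver genes 6 had a row, and those summed to 2 and 3 counts.

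**Figure D3:**
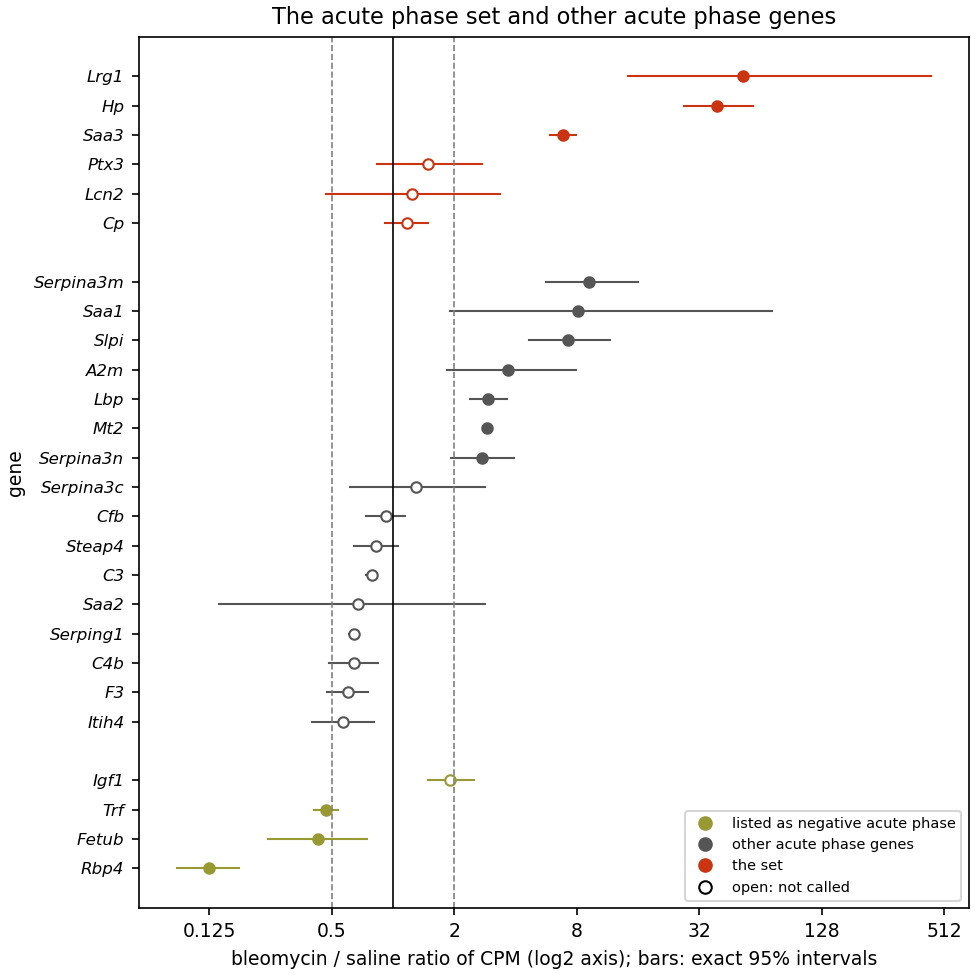
Ratio of bleomycin to saline CPM (log2 axis) with exact 95% intervals for the acute phase set (red), further tested acute phase genes (grey) and plasma proteins listed as negative acute phase proteins (olive); filled points were called and dashed lines mark 2-fold. Filled grey points all lie to the right of 2, and the 3 filled olive points lie to the left of 0.5.

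Genes of the IL-6 family and STAT3, the classical inducers of Hp, Lrg1 and the other liver-type proteins, had members called in both directions. Of 25 listed, 22 had a row and 19 were tested, of which 2 were called higher and 3 lower (8.11% and 8.59% over all genes tested), with a median log2 ratio of -0.34 beside 0.02 over all genes. Il6 itself counted 96 and 84, with a ratio of 0.885 (0.652 to 1.2). Il11, a related cytokine, had 8 and 66 counts, a ratio of 8.34 (4 to 20.1), while its receptor gene Il11ra1 was 2.64-fold lower (2.13 to 3.3) at 310 and 116 counts. Lif, with 212 and 388 counts, had a ratio of 1.85 (1.56 to 2.2) and was not called. The receptor genes Il6st and Osmr had ratios of 1.2 (1 to 1.44) and 1.07 (0.892 to 1.29), and Il6ra had 4 and 3 counts.

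Downstream of these receptors, ratios lay above 1 for Jak2 and Stat3 and below 1 for Jak1, Tyk2, Socs3, Pim1 and Junb. Jak2 had 53 and 111 counts, a ratio of 2.12 (1.51 to 3), and Stat3 had 136 and 220, a ratio of 1.64 (1.32 to 2.04) that was not called. The related kinase genes Jak1, at 207 and 155 counts, and Tyk2, at 11 and 3, were not called. Their ratios were 0.757 (0.611 to 0.937) and 0.276 (0.0494 to 1.04). Socs3, the feedback inhibitor that STAT3 induces, was 1.98-fold lower (1.67 to 2.35), from 415 to 207 counts, and was not called. It fell just short of the 2-fold limit, so its call depends on the scaling. With library sizes scaled by total counts or RLE factors, 4 genes of the list were called lower instead of 3. Pim1, a STAT3-induced kinase, was 2.34-fold lower (1.97 to 2.79), and Junb, an early response factor, was 2.12-fold lower (1.97 to 2.27) at 2500 and 1168 counts. An entry named C/EBP, which may pool several C/EBP genes and was chosen after its values were seen, had 1400 and 734 counts, a ratio of 0.53 (0.484 to 0.58). The first transcript record given for this entry was not matched to Cebpa, Cebpb or Cebpd, so the entry is not read as any of these genes. Cebpa, Cebpb and Cebpd were listed but not matched to a row of their own, so their levels are not given here.

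Among IL-1, TNF, IL-17 and NF-kappaB genes, 34 of 35 listed had a row, 28 were tested, 0 were called higher and 1 lower (8.11% and 8.59% over all genes tested), and the median log2 ratio was 0.05. The lower gene was Nfkbiz, which encodes the co-activator IkappaB-zeta, known to drive Lcn2, at 166 and 69 counts and 2.38-fold lower (1.79 to 3.2). Nfkbia, the inhibitor that NF-kappaB induces and the most abundant gene of the list, had 1303 and 777 counts, a ratio of 0.603 (0.551 to 0.66). The ligand genes Il1a, Il1b and Tnf had at most 5 counts in a library. Il1rn, the IL-1 receptor antagonist, had 0 and 9 counts and was under the minimum for testing. Nfkb1 and Rela had ratios of 1 (0.833 to 1.21) and 0.716 (0.562 to 0.909). The receptor genes Tnfrsf1a and Il17ra had ratios of 1.58 (1.22 to 2.05) and 1.5 (1.03 to 2.19) and were not called. Of the genes of this list that were not called, 7 had intervals wholly below 1.

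**Figure D4:**
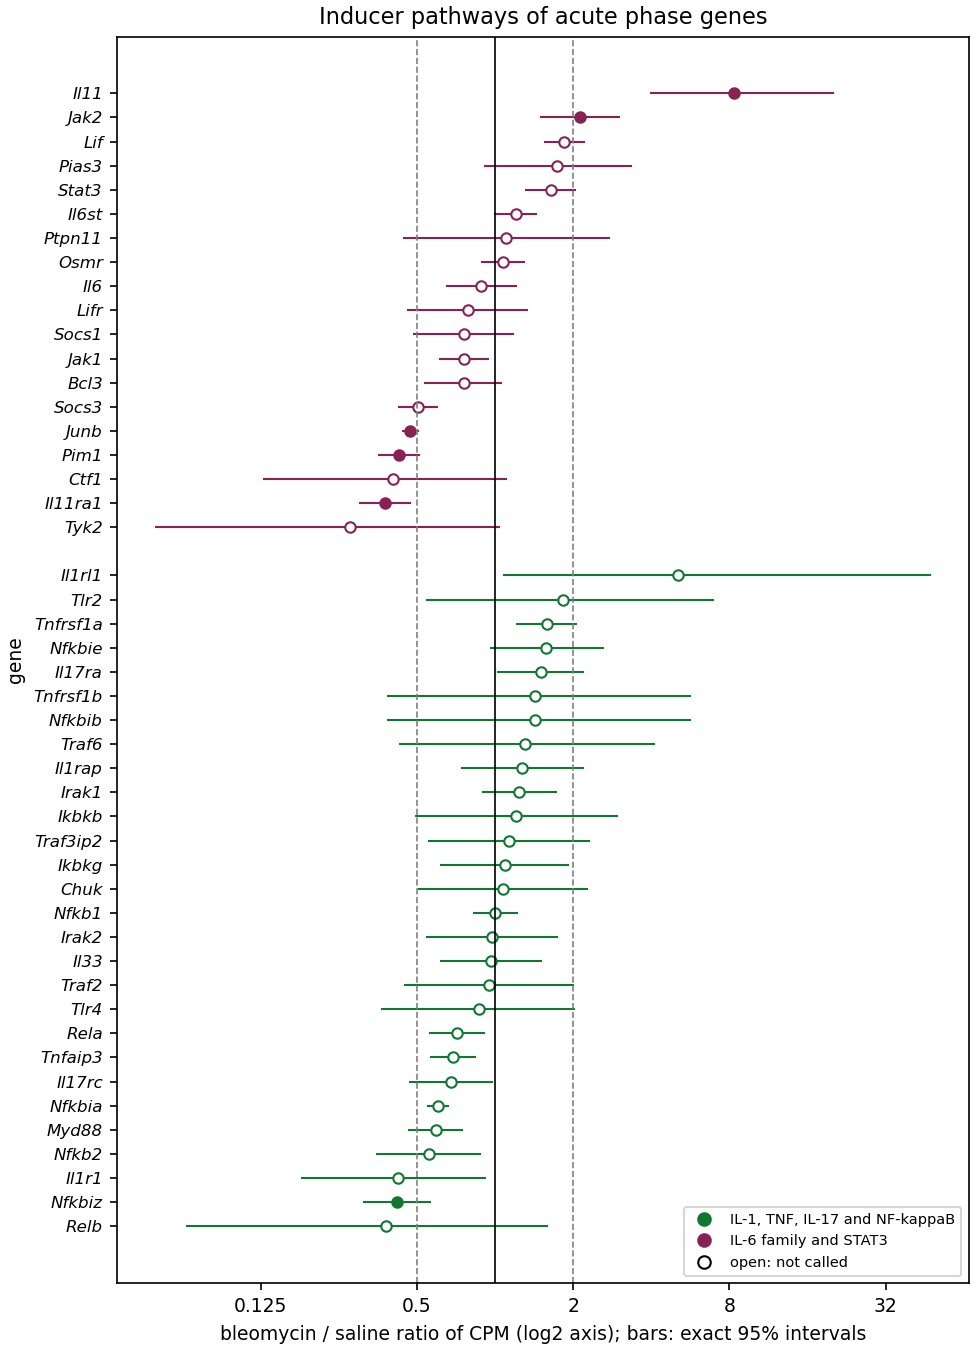
Ratio of bleomycin to saline CPM (log2 axis) with exact 95% intervals for tested genes of the IL-6 family and STAT3 (purple) and of IL-1, TNF, IL-17 and NF-kappaB (green); filled points were called and dashed lines mark 2-fold. Il11 and Jak2 are the filled points on the right, and Junb, Pim1, Il11ra1 and Nfkbiz those on the left.

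Receptors and binding partners of the 7 proteins had 21 of 23 genes with a row and 13 tested, of which 1 was called higher and 3 lower (8.11% and 8.59% over all genes tested). Their median log2 ratio was -0.64, and -0.02 with no minimum count. For LRG1, Tgfb1, a TGF-beta ligand, had 36 and 139 counts, a ratio of 3.9 (2.69 to 5.8), and Tgfbr2 had 486 and 845, a ratio of 1.76 (1.57 to 1.97). Tgfbr1 had 18 and 17 counts, and the latrophilin gene Lphn2 had 21 and 24. The receptor genes of this pathway best known from endothelium were lower, Acvrl1 by 7.25-fold (3.08 to 20.8) at 44 and 6 counts and Eng by 2.47-fold (1.3 to 4.97) at 35 and 14 counts. The 14 endothelial markers described below summed to 622 and 40 counts in the same libraries, and the part of endothelial cells in these values was not tested.

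Among partners of PTX3, Tnfaip6 had 321 and 168 counts, a ratio of 0.529 (0.437 to 0.64) that was not called. Itih1, Itih2, Fgf2, C1qa and Selp had at most 7 counts in a library. Lrp1, a scavenger receptor that takes up haem complexes, had 1217 and 633 counts, a ratio of 0.526 (0.477 to 0.58). For lipocalin 2, the receptor gene Slc22a17 had 54 and 34 counts, Lrp2 had 1 and 1, and Mmp9 had 2 and 4. Candidate receptors of serum amyloid A were sparse, with Scarb1 at 43 and 26 counts, P2rx7 at 5 and 13, and Fpr2 at 0 in both. Cd163 was not analysed here.

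Iron, copper and haem genes, the setting in which haptoglobin, ceruloplasmin and lipocalin 2 act, had 21 of 22 with a row and 16 tested, of which 4 were called higher and 1 lower (8.11% and 8.59% over all genes tested). Their median log2 ratio was 0.29, and 0.45 with no minimum count. Tfrc, the transferrin receptor, had 1 and 17 counts, a ratio of 17.2 (2.69 to 718), and Slc40a1, the iron exporter that works with ceruloplasmin, had 7 and 31, a ratio of 4.48 (1.93 to 12.1). Atox1, a copper chaperone that feeds the pumps that load ceruloplasmin, had 187 and 458 counts, a ratio of 2.48 (2.08 to 2.95), and the copper importer gene Slc31a1 had a ratio of 2.11 (1.26 to 3.64). Blvra, which reduces biliverdin, was 2.17-fold lower (1.27 to 3.82). Fth1, ferritin heavy chain, had 6789 and 8571 counts, a ratio of 1.28 (1.24 to 1.32), and Hmox1, haem oxygenase, had 88 and 127, a ratio of 1.46 (1.1 to 1.94).

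Several of these proteins are also made by other cells of the lung, so markers of those cells were read in the same libraries. In bulk RNA, fewer cells of a type and less RNA per cell cannot be told apart. All 12 fibroblast genes were detected in both libraries, with the lowest sum in Pdgfrb, at 30 and 27 counts, and the highest in Sparc, at 8491 and 20083. Of these, 5 were called higher and 1, Dcn, lower, at 4861 and 1606 (8.11% and 8.59% over all genes tested). Col1a1 had 2714 and 7925 counts, Col1a2 1636 and 5613 and Pdgfra 509 and 323. The leukocyte gene Ptprc had 0 and 1 counts and the epithelial gene Epcam 1 and 0. Of 12 neutrophil genes, sources of haptoglobin, LRG1 and lipocalin 2, 6 had a row and these summed to 4 and 38 counts, of which Mmp8 held 1 and 32, while Ltf and S100a9 were at 0 in both libraries and S100a8 had 0 and 3. Of 15 macrophage genes, 11 had a row and these summed to 81 and 26 counts, most of them Cd74, at 72 and 16, with Emr1, Marco, C1qc and Siglec5 at 0.

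Epithelial, endothelial and mesothelial sums were lower in the library in which Hp, Lrg1 and Saa3 were higher. The 15 epithelial genes with a row summed to 227 and 42 counts, 5.34-fold lower (3.83 to 7.62). Most of the saline sum was held by Sftpc, at 154 and 7 counts, and Scgb1a1, at 46 and 12, so the lower sum is mainly theirs. The other genes had few counts and went both ways. Krt8 had 1 and 4, Muc1 2 and 6 and Foxj1 0 and 3, whereas Sftpa1 had 8 and 3, Krt18 8 and 6 and Krt19 4 and 0. Cdh1, Sftpd, Ager and Nkx2-1 were at 0. The 14 endothelial genes summed to 622 and 40 counts, 15.4-fold lower (11.2 to 21.7), with Pecam1 at 53 and 3. The 7 mesothelial genes with a row summed to 208 and 158 counts, 1.3-fold lower (1.05 to 1.61), and Upk1b held 154 and 131 of them. Upk1b alone had a ratio of 0.86 (0.676 to 1.09), with an interval that included 1. Krt7, at 30 and 11 counts, was called lower, and Gpm6a had 15 and 7. Lrrn4, at 2 and 5, and Wt1, at 0 and 2, went the other way. The part of other cells in the levels of the acute phase genes was not tested.

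**Figure D5:**
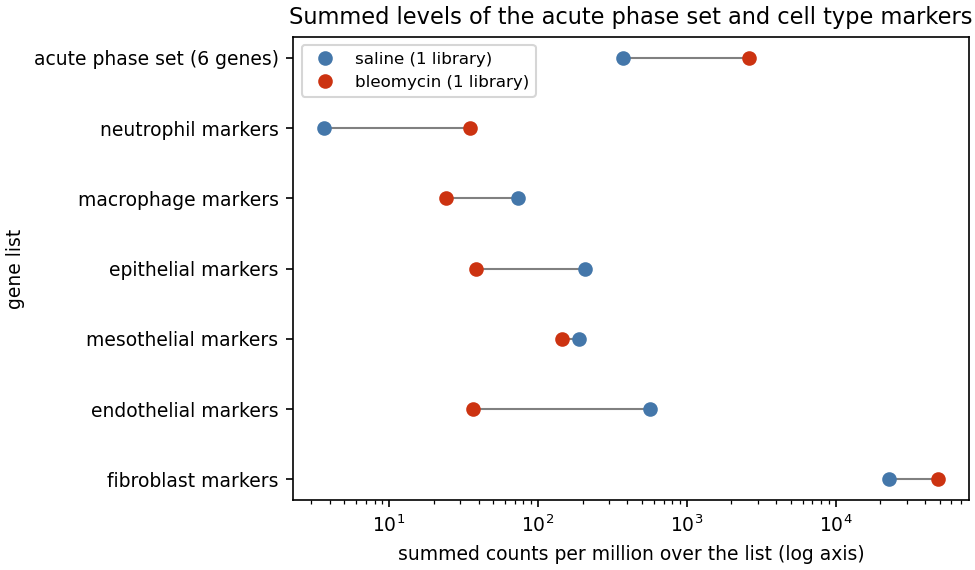
Summed level in CPM (log axis) of the 6 measured acute phase genes and of each list of cell type markers in the saline (blue) and bleomycin (red) library. The acute phase, neutrophil and fibroblast sums are higher in the bleomycin library, and the macrophage, epithelial, mesothelial and endothelial sums are lower. The neutrophil difference is mainly that of Mmp8, at 1 and 32 counts, and the macrophage difference that of Cd74, at 72 and 16.

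Promoters were available in RefSeq (GRCm38.p6) for 5 of the 7 genes, Saa3, Lrg1, Lcn2, Ptx3 and Cp, the last with 2 start sites. They were searched on both strands, from 250 bases before to 50 after the start, for TTCNNNGAA, a STAT site, TTGCNNAA, a C/EBP site, and GGGNNTTNC, an NF-kappaB site. The 250 bases before the start are shown for the 2 promoters of genes that were higher and for Ptx3, which was not called, with matches in capitals, so that the sites can be compared.
Saa3, chr7:46715677-46715926, minus strand: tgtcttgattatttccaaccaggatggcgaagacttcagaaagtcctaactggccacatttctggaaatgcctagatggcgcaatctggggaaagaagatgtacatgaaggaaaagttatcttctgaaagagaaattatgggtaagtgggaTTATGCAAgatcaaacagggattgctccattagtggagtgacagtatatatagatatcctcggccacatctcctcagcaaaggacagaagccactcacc
Lrg1, chr17:56121947-56122196, minus strand: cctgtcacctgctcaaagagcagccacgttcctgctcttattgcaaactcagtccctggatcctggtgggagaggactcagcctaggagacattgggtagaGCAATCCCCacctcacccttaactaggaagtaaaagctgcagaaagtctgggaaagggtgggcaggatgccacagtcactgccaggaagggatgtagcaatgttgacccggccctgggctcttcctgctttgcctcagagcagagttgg
Ptx3, chr3:66219637-66219886, plus strand: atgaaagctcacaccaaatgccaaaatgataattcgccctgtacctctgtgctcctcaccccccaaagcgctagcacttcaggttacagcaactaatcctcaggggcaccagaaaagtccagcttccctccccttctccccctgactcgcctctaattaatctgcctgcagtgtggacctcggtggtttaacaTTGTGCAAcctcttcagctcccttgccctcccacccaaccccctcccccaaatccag
The C/EBP letters began 99 bases before the start in Saa3, 57 in Ptx3, 70 in Cp at 1 of its start sites and 216 in Lcn2, and did not occur in Lrg1. The NF-kappaB letters began 149 bases before the start in Lrg1 and at the second base after it in Ptx3. No STAT match was found in these windows. In all 32851 promoters of this length, 8.3% held the STAT, 10.8% the C/EBP and 15.2% the NF-kappaB letters. The C/EBP letters were thus present in 4 of 5 genes, 1 of them called higher and 3 not called, and a match describes letters and not a bound site.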

How the data were processed

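The authors deposited raw-looking counts per gene symbol for 2 SOLiD SAGE libraries, 1 a group. BWA 0.6.2 and the mm9 build are named, without a role, in the submitters' processing notes. Tag assignment, use of strand and any scaling are not given in the sources used here; tests and intervals hold only for raw counts. One blank line was left out.

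Library sizes were scaled with TMM factors (1.01 and 0.986; edgeR 4.0.16, R 4.3.3). The quasi-likelihood test needs replicates and could not be fitted, so the 9369 genes with at least 10 counts over both libraries each had a two-sided exact binomial test (scipy 1.17.1), adjusted by Benjamini-Hochberg. Genes were called at an adjusted p under 0.05 with a 2-fold or larger difference. Log2 ratios have 0.5 added to counts. Ratio and share intervals are Clopper-Pearson, count intervals exact Poisson, all at 95%.

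The genes and 13 lists were chosen with earlier results of these data known. The naming rule took the 7 genes, all partners, the 3 called genes furthest from 1 per direction and the most abundant gene of each other list, identity genes and the 3 nearest genes in level; some marker genes it took are given only within their sums, and a few genes, counted in their lists, are not reported here. Symbols not found directly were matched by transcript record through a RefSeq table of GRCm38.p6. That assembly is not mm9, so its coordinates are given for promoters only. Of the markers, those of fibroblasts had 5 of 12 genes called higher and 1 lower (8.11% and 8.59% over all genes tested). Scaling, prior count, minimum count, ratio limit, adjustment and an assumed spread between libraries were varied.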

Additional observations from a re-analysis of the deposited data

How the results depend on the processing

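No paired analysis was possible because each group has 1 library, and no library could be left out. Hp, Lrg1 and Saa3 had ratios of at least 2, and Lcn2, Cp and Ptx3 did not, with total counts, RLE factors or a prior count of 5; the log2 ratio of Lrg1 ranged from 3.98 to 5.40. All genes called numbered 1565, and 892 at a minimum of 50 counts, 918 at a ratio of at least 3, 2568 by the ratio alone and 29 with edgeR and an assumed coefficient of variation of 0.4 between libraries. Hp and Lrg1 were among those 29 (21 higher, 8 lower), and Saa3 was not. Under that assumption, which was not counted for the cell type markers, 0 genes of each other list were called: 0 instead of 8 higher for other acute phase genes, 3 lower for plasma proteins that fall, 2 higher and 3 lower for IL-6 and STAT3, 1 lower for NF-kappaB, 1 higher and 3 lower for partners, and 4 higher and 1 lower for iron and copper. With a ratio of at least 3, 4 other acute phase genes were called higher, 1 falling plasma protein lower, 1 IL-6 and STAT3 gene higher and 0 lower, 0 NF-kappaB genes lower, 1 partner lower, and 2 iron and copper genes higher and 0 lower. By the ratio alone, 5 IL-6 and STAT3 genes were lower, 1 NF-kappaB gene higher and 3 lower, 2 partners higher and 2 iron and copper genes lower. With no minimum 1 NF-kappaB gene was higher, and with a minimum of 50 counts 2 iron and copper genes were higher. The median log2 ratio of NF-kappaB genes was 0.21 with no minimum and that of partners -0.81 with a minimum of 50. The C/EBP letters were found in 3 genes instead of 4 in the window from 150 before the start. Another 98 recomputed values stayed within 1.5 times of the original, but some of them could not move. The prior count plays no part in which genes are called, and the liver list had 0 genes with enough counts to be tested. Those values therefore say nothing about stability. The assumed spread has no measurement behind it, and with 1 library a group the spread between preparations is unknown.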
